A study of Mus musculus with 119 samples.

Results

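The 9 genes described here encode proteins of the Bcl2 family, the proteins that decide whether the outer membrane of the mitochondrion stays intact. They are Mcl1, Bcl2l1, Bcl2a1b, Bcl2a1d, Bcl2l11, Pmaip1, Bbc3, Bid and Bax, and they were taken by symbol from the 18098 genes of the normalised expression table. The symbols were chosen with earlier results of these data known. All 9 are present in the table and all 9 passed the filter on low values.

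RNA-seq was performed on mouse bone marrow-derived macrophages (BMDMs), grown from bone marrow in L-cell conditioned medium and left unstimulated or stimulated with LPS, the ligand of TLR4, at 100 ng/ml. The study asked how TPL-2 (MAP3K8), the kinase that activates MKK1/2 and ERK1/2 downstream of TLR4, controls gene expression. WT BMDMs gave 22 libraries (no LPS, 0.5, 1 and 2 h). Map3k8[D270A] BMDMs, whose TPL-2 has no kinase activity, gave 24 over the same times. Elk1-/-Elk4-/- BMDMs, which lack a pair of ternary complex factors that ERK1/2 activates, gave 16 over the same times. Nfkb1[SS/AA] BMDMs, whose p105 cannot be phosphorylated by IKK2 on its target serines and so keeps hold of TPL-2, gave 18 (no LPS, 0.5 and 1 h). WT BMDMs given the MKK1/2 inhibitor PD0325901 at 0.1 µM gave 21 libraries, of which 9 had inhibitor alone for 10, 40 or 70 min and 12 had 10 min of inhibitor followed by LPS for 0.5 or 1 h. DMSO alone for 10 min gave 3 libraries. WT BMDMs given the RSK inhibitor RSKi47 at 2 µM for 10 min gave 15 (no LPS, 0.5, 1 and 2 h). All cells are of strain C57BL/6(NIMR), and groups hold 3 to 6 libraries.

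Several features of this design bear on each comparison below. The mutations were present in the whole animal, and the labels do not say how many mice gave the cells or whether mice were pooled, so p-values measure the spread between these libraries, which may be technical. The labels place WT and Map3k8[D270A] libraries in one experiment and each other genotype or inhibitor in an experiment of its own, so for these the genotype or inhibitor and the experiment cannot be told apart. Every comparison with WT uses the same WT libraries. No DMSO library received LPS, and RSKi47 has no solvent control.

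Values are normalised expression on a log2 scale, differences are log2 differences between group means, and folds are computed from them. Log2-transformed normalised counts are what the study plotted, but the sources used here do not name the transformation of the deposited values. If the differences between libraries were natural logarithms, each difference would be larger in size by the inverse of 0.693. The values are not per length of transcript, so levels are compared between groups and never between genes. A gene is called at an adjusted p below 0.05 from limma over all genes tested. In bulk RNA, fewer cells of a type and less RNA per cell cannot be told apart.

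The family works as a balance. Survival members (MCL1, BCL-XL from Bcl2l1, and A1 from the Bcl2a1 copies) bind and hold the death members. The effectors BAX and BAK open the outer membrane once activated, and the BH3-only members (BIM from Bcl2l11, NOXA from Pmaip1, PUMA from Bbc3, and BID) either activate the effectors or occupy the survival members. In macrophages A1 is a well-known NF-κB target, NOXA and PUMA are known p53 targets, and MCL1 is a short-lived protein that NOXA binds.

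The promoters of 4 of the genes are printed because Mcl1 and Bcl2l11 hold the letters of an ETS site, the kind ELK1 and ELK4 bind, and because the Bcl2a1 copies moved together. Each is 300 bases, from 250 before to 50 after the annotated start, read 5′ to 3′ on the strand of the gene from RefSeq on GRCm38.p6, with matched motifs in capitals. The first is that of Mcl1 at chr3:95658471-95658770 (plus strand). The second is the first of 2 of Bcl2l11 at chr2:128125788-128126087 (plus strand). The others are those of Bcl2a1b at chr9:89199023-89199322 (plus strand) and Bcl2a1d at chr9:88731801-88732100 (minus strand).
Mcl1: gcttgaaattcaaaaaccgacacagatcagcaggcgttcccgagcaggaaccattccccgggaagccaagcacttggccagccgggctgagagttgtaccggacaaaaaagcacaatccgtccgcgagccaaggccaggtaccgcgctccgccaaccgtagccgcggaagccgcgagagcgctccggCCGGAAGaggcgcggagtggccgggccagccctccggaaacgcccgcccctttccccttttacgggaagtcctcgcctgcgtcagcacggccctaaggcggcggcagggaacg
Bcl2l11: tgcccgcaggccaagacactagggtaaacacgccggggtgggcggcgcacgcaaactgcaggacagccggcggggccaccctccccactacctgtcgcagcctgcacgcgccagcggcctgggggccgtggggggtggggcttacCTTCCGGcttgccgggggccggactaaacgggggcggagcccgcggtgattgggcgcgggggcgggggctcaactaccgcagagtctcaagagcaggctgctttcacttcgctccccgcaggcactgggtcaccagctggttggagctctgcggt
Bcl2a1b: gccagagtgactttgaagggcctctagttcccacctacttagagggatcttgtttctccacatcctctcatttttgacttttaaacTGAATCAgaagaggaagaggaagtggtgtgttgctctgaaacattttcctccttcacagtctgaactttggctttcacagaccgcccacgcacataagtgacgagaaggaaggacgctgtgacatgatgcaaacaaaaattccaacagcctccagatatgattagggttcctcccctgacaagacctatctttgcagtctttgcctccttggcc
Bcl2a1d: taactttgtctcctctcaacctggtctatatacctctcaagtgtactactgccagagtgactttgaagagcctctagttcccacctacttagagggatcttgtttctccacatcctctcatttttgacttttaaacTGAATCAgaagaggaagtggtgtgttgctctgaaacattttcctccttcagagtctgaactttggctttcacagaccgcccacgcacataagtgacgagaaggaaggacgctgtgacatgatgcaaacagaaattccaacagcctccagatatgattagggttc

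The capitals in the Mcl1 promoter are the ETS letters CCGGAAG at -63 from the start, and those in the Bcl2l11 promoter are the same letters on the opposite strand. ELK1 and ELK4 are ETS factors. These letters are in 8.86% of 32841 promoters of this length. The capitals in both Bcl2a1 promoters are the AP-1 letters TGANTCA, at -164 in Bcl2a1b and -114 in Bcl2a1d, letters found in 7.81% of promoters. The 2 Bcl2a1 promoters are near copies: over 256 bases of Bcl2a1b and the last 250 of Bcl2a1d they hold 247 identical bases, 3 mismatches and 6 gaps (96.5% identity), and the AP-1 letters lie at the same aligned place. Both strands were searched for 5 motifs in the 13 promoters in the table for 8 of the members. Apart from those printed, the ETS letters were found at 35 from the third start of Bcl2l1, and the NF-κB motif (in 8.46% of promoters) at -242 from its second start and on both strands, overlapping, at -137 and -136 from the first start of Bbc3. The CRE letters TGACGTCA (in 1.79% of promoters) and the CArG box (in 1.63%), the motif of the partner of ternary complex factors, SRF, were in none of the 13 windows. A match is only a match of letters.

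The genes lie apart in the genome except for the Bcl2a1 copies. On GRCm38.p6, Mcl1 spans chr3:95656944-95663179, Bcl2l1 chr2:152758732-152833803, Bcl2l11 chr2:128126038-128162547, Bbc3 chr7:16308398-16318334, Bid chr6:120893119-120917062 and Bax chr7:45461695-45466903. Bcl2a1b spans chr9:89199273-89207838 and Bcl2a1d chr9:88723288-88731850. Of the 50-base windows of the annotated transcripts, 57.6% of those of Bcl2a1b and 79.5% of those of Bcl2a1d also occur in another Bcl2a1 copy, so how reads were divided among the copies is uncertain. Both are described separately, and where summing all copies changed a call this is given. Annotated genes overlap Bcl2l1 (Cox4i2), Bcl2l11 (Acoxl), Bcl2a1d (Gm10634) and Bid (Gm17812, a pseudogene).

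LPS changed most of the family in WT BMDMs. At 0.5 h of LPS 6 of the 9 genes were called, at 1 h 8 and at 2 h 7. Of all genes tested, 11.6%, 46.8% and 71.5% were called in turn. With a 2-fold rise required as well, 0, 4 and 4 of the 9 genes passed, against 0.623%, 3.20% and 7.72% of all genes tested. The median difference of the 9 was 0.26, 0.88 and 0.40 at the 3 times, and that of all genes tested was between -0.02 and 0.00. No WT comparison with unstimulated cells put a death member other than Bcl2l11 past 2-fold.

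Mcl1 rose early and for a short time. Its 6 unstimulated WT libraries ran from 13.73 to 13.98 with a median of 13.89. They ran from 14.36 to 14.58 at 0.5 h (median 14.49), from 15.04 to 15.19 at 1 h (median 15.11) and, in 4 libraries, from 14.21 to 14.32 at 2 h (median 14.28). No time overlapped any of the neighbouring times. The rise was 0.62 ± 0.05 (SE) at 0.5 h, or 1.53-fold (adjusted p = 2.44e-16), and 1.25 ± 0.05 at 1 h, or 2.37-fold (adjusted p = 1.18e-30). From 1 to 2 h Mcl1 fell by 0.84, or 1.8-fold (adjusted p = 5.17e-21), and the remaining difference of 0.40 at 2 h from unstimulated cells (adjusted p = 6.25e-10) became -0.06 (adjusted p = 0.354) when libraries were quantile-normalised.

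Bcl2l1, which encodes the survival protein BCL-XL, rose late. Its WT libraries ran from 11.85 to 12.02 without LPS, from 11.84 to 12.09 at 0.5 h, from 12.04 to 12.27 at 1 h and from 13.11 to 13.15 at 2 h. The groups without LPS and at 0.5 h overlapped fully, and the 4 libraries at 2 h stood clear of all others. The difference was 0.03 at 0.5 h (adjusted p = 0.806), 0.25 at 1 h (adjusted p = 9.79e-06) and 1.204 ± 0.05 at 2 h, or 2.30-fold (adjusted p = 7.33e-28). The call at 1 h was lost under quantile normalisation (0.06, adjusted p = 0.195). Between 1 and 2 h Bcl2l1 thus rose by 0.96 (adjusted p = 4.87e-23) while Mcl1 fell.

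The A1 copies rose most. Bcl2a1b ran from 10.30 to 10.63 without LPS, from 10.93 to 11.37 at 0.5 h, from 12.29 to 13.18 at 1 h and from 13.47 to 13.88 at 2 h. Bcl2a1d ran from 7.48 to 7.86, from 8.2 to 8.88, from 10.43 to 11.53 and from 12.05 to 12.47 at the same times. For both genes no time overlapped the next. Bcl2a1b rose 1.49-fold at 0.5 h, 4.95-fold at 1 h and 8.99-fold at 2 h (differences of 0.58, 2.31 and 3.17 with SE from 0.10 to 0.11, adjusted p = 1.51e-05, 1.75e-27 and 7.06e-32). Bcl2a1d rose 1.74-fold, 10.3-fold and 23.9-fold (0.80, 3.37 and 4.58 with SE from 0.12 to 0.14, adjusted p = 1.81e-06, 8.59e-31 and 6.17e-35).

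Among the BH3-only genes Bcl2l11, the gene of BIM, rose most, chiefly between 0.5 and 1 h. Its libraries ran from 11.75 to 11.84 without LPS, from 11.91 to 12.18 at 0.5 h, from 13.64 to 14.06 at 1 h and from 13.52 to 13.63 at 2 h. The libraries at 2 h lay just below all those at 1 h. The rise was 0.26 at 0.5 h (adjusted p = 5.71e-05), 2.03 ± 0.05 at 1 h, or 4.09-fold (adjusted p = 2.17e-39), and 1.77 ± 0.05 at 2 h, or 3.4-fold (adjusted p = 7.92e-35).

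Pmaip1, the gene of NOXA, at chr18:66458604-66465558, rose and then fell below its starting level. It ran from 8.995 to 9.54 without LPS, from 9.71 to 10.24 at 0.5 h, from 9.87 to 10.17 at 1 h and from 8.14 to 8.66 at 2 h. The groups at 0.5 and 1 h overlapped each other and stood above the rest. Pmaip1 was 1.66-fold higher at 0.5 h (0.73 ± 0.11, adjusted p = 5.6e-07), 1.84-fold higher at 1 h (0.88 ± 0.11, adjusted p = 4.4e-10) and 1.8-fold lower at 2 h (-0.84 ± 0.12, adjusted p = 1.17e-08). From 1 to 2 h it fell 3.31-fold (-1.73, adjusted p = 1.18e-18), the largest fall among the 9 genes between these times.

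Bbc3, the gene of PUMA, and Bid dipped at 1 h. Bbc3 ran from 8.98 to 9.28 without LPS, from 8.89 to 9.19 at 0.5 h, from 7.895 to 8.48 at 1 h and from 8.92 to 9.34 at 2 h, so that the group at 1 h lay below every other. It fell by 0.97 at 1 h, or 1.96-fold (SE 0.08, adjusted p = 9.22e-16), while the differences at 0.5 h (-0.13, adjusted p = 0.325) and 2 h (-0.17, adjusted p = 0.0896) did not pass. With the replicate number as a block, the difference at 2 h passed (-0.18, adjusted p = 0.0194). Bid ran from 10.18 to 10.44 without LPS, from 9.96 to 10.27 at 0.5 h, from 9.68 to 9.97 at 1 h and from 10.11 to 10.21 at 2 h. It fell by 0.18 at 0.5 h (adjusted p = 0.00793), by 0.53 at 1 h (adjusted p = 6.5e-14) and by 0.15 at 2 h (adjusted p = 0.0123), and only the group at 1 h did not overlap unstimulated cells. The call at 0.5 h was lost without replicate 9 at that time (-0.14, adjusted p = 0.051).

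Bax, the effector of the set, was not called at any time in WT BMDMs. Its libraries ran from 11.47 to 11.63 without LPS and from 11.42 to 11.63 over the LPS times. The 95% intervals of its differences from unstimulated cells ran from -0.14 to 0.04 at 0.5 h, from -0.05 to 0.13 at 1 h and from -0.07 to 0.13 at 2 h. Quantile normalisation gave a lower level at 1 h (-0.12, adjusted p = 0.0193) and at 2 h (-0.30, adjusted p = 8.89e-07), so its course depends on the scaling.

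**Figure D1:**
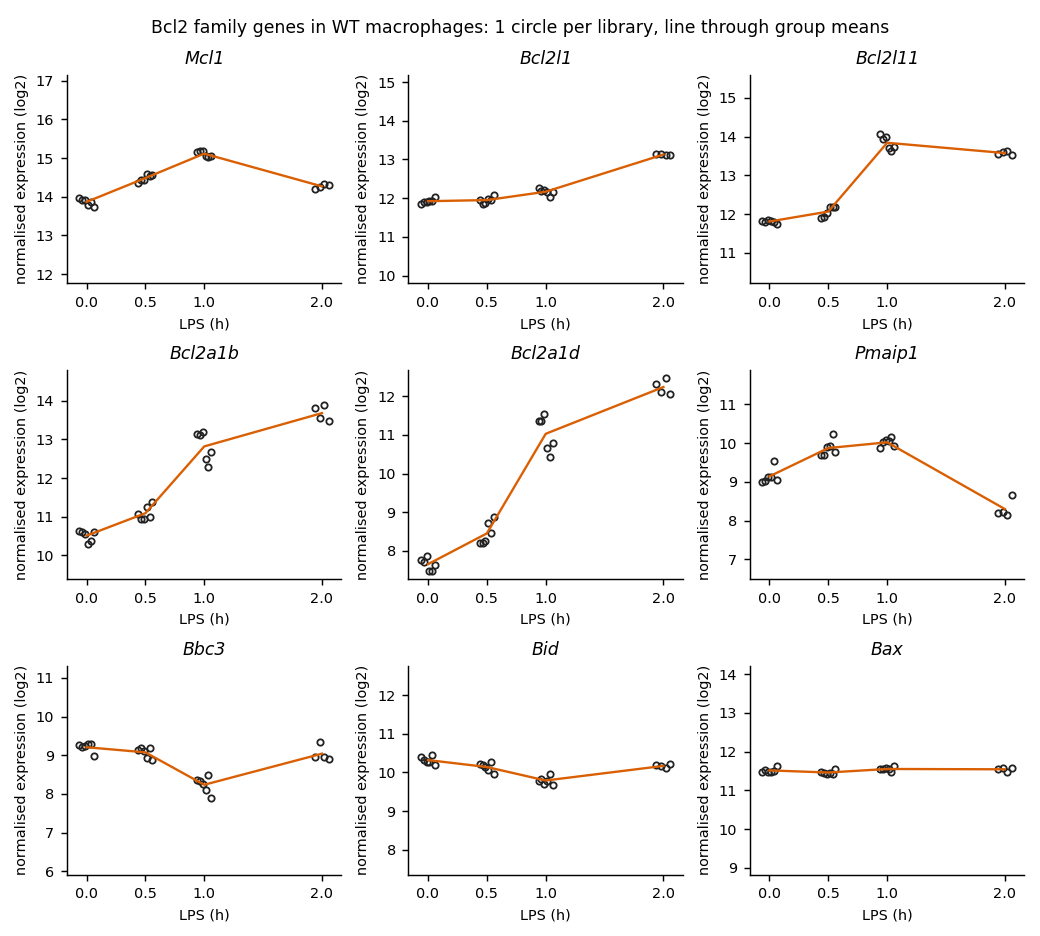
Normalised expression (log2, vertical axis) of the 9 genes in WT BMDMs against hours of LPS (horizontal axis), 1 panel per gene with the same span of axis, 1 circle per library and a line through the group means. Mcl1 peaks at 1 h, Bcl2l1 rises between 1 and 2 h, the Bcl2a1 copies climb throughout, Pmaip1 ends below its start, Bbc3 and Bid dip at 1 h and Bax stays between 11.42 and 11.63.

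Genes of both roles moved in each direction between 1 and 2 h. In that comparison 8 of the 9 were called, beside 65.3% of all genes tested, and between 0.5 and 1 h 7 were, beside 40.3%. With the replicate number as a block Bax was called as well between 0.5 and 1 h (0.09, adjusted p = 0.0263), which made 8. From 1 to 2 h Bcl2l1, both Bcl2a1 copies, Bbc3 (0.80) and Bid (0.38) rose, and Mcl1, Bcl2l11 (-0.27) and Pmaip1 fell.

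Other parts of the death machinery were tabulated from lists of genes known for these roles. Of 17 further family members 12 were tested. Of these 4 rose and 3 fell at 1 h of LPS in WT BMDMs, and 4 rose and 7 fell at 2 h, beside 46.8% and 71.5% of all genes tested called in either direction. The list's median difference was -0.02 and -0.14 at these times. The remaining A1 copies Bcl2a1a and Bcl2a1c rose by 3.21 and 2.00 at 1 h and by 4.57 and 2.75 at 2 h (adjusted p = 2.4e-25, 3.67e-19, 1.92e-30 and 2.46e-23). Bmf, another BH3-only gene, fell by 1.78 at 1 h (adjusted p = 5.07e-22) and 1.79 at 2 h (adjusted p = 1.73e-20).

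All 19 genes of the caspase, apoptosome and IAP list were tested. At 1 h 4 rose and 4 fell, and at 2 h 7 rose and 9 fell, with medians of -0.04 and -0.11, beside the same 46.8% and 71.5% of all genes called. Cflar, which encodes the caspase-8 inhibitor c-FLIP, rose by 2.71 and 2.90 at the 2 times (adjusted p = 2.19e-38 and 7.59e-38). Birc3, the gene of the inhibitor of apoptosis cIAP2, rose by 1.61 and 1.74 (adjusted p = 2.23e-24 and 4.03e-24). Casp9, the initiator caspase of the apoptosome, fell by 1.35 at 2 h (adjusted p = 6.73e-31).

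Of 12 genes of p53 and its targets 11 were tested, of which 4 rose and 3 fell at 1 h and 5 rose and 6 fell at 2 h, with medians of -0.06 and -0.34, again beside 46.8% and 71.5% of all genes called. The targets did not share a direction. Cdkn1a, the cell cycle inhibitor p21, rose by 1.72 and 2.01 (adjusted p = 2.37e-26 and 1.49e-27). Mdm2, the ligase that degrades p53, rose by 1.55 at 1 h and 0.28 at 2 h (adjusted p = 2.16e-30 and 0.000134). Sesn1, Trp53inp1 and Sesn2 fell at 2 h by 2.37, 2.22 and 1.11 (adjusted p = 3.42e-32, 2.16e-29 and 1.83e-13).

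The mutants and inhibitors were checked on their targets or on Egr1. Elk1 and Elk4 were lower in Elk1-/-Elk4-/- than in WT BMDMs at each of the 4 times, with differences of -2.76 and -2.01 at the weakest. Egr1, an ERK1/2 target, was lower in Map3k8[D270A] at 0.5, 1 and 2 h of LPS (-4.41, -3.24 and -1.81), with PD0325901 at 0.5 and 1 h (-4.48 and -4.22), in Nfkb1[SS/AA] at 0.5 and 1 h (-2.56 and -3.06) and in Elk1-/-Elk4-/- at 0.5, 1 and 2 h (-4.45, -4.04 and -2.55). With RSKi47 Egr1 was higher at 1 h (1.01, adjusted p = 9.89e-08) and not called at the other times, so no readout here checks that inhibitor. The point mutations of Map3k8 and Nfkb1 cannot be checked by level. Summed macrophage markers lay between 18.4 and 19.2 in every library. Summed neutrophil markers (8 genes, of which Elane and Mpo did not pass the filter) ran from 10 to 11 in Elk1-/-Elk4-/- BMDMs, from 6.29 to 7.77 in WT and from 6.19 to 7.57 in Map3k8[D270A]. They ran from 7.56 to 8.26 with DMSO, from 7.32 to 8.82 with PD0325901, from 7.11 to 8.60 with RSKi47 and from 6.76 to 8.36 in Nfkb1[SS/AA].

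Mcl1 was lower with inactive TPL-2 at every time of LPS. This comparison asks what TPL-2 kinase activity contributes, and it is the one in which both genotypes come from one labelled experiment. Without LPS none of the 9 genes was called in Map3k8[D270A] against WT by limma, beside 1.44% of genes tested. Bcl2l1 and Bax were the 2 with an unadjusted p below 0.05 there. At 0.5 h 2 were called (1.37%), at 1 h 5 (9.79%) and at 2 h 5 (27.7%). None of these differences reached 2-fold. The median difference of the 9 was -0.05, -0.13, -0.08 and -0.085 at the 4 times, and that of all genes tested lay within 0.02 of 0.

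Mcl1 in Map3k8[D270A] ran from 13.68 to 13.92 without LPS, from 14.12 to 14.26 at 0.5 h, from 14.72 to 14.87 at 1 h and from 13.93 to 14.12 at 2 h. With LPS every Map3k8[D270A] library lay below every WT library of its time, and without LPS the genotypes overlapped. The difference was -0.08 without LPS (adjusted p = 0.478), -0.30 ± 0.05 at 0.5 h (adjusted p = 9.89e-06), -0.33 ± 0.05 at 1 h (adjusted p = 3.81e-07) and -0.25 ± 0.05 at 2 h (adjusted p = 0.00012), or 1.19-fold to 1.25-fold lower with LPS. Tested as a difference between responses, the rise at 1 h was smaller in Map3k8[D270A] by 0.24 (-0.24, adjusted p = 0.0293), a call lost under quantile normalisation (-0.12, adjusted p = 0.919) and without any of 10 libraries, and those at 0.5 and 2 h did not pass (-0.21 and -0.17, adjusted p = 0.566 and 0.0937).

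The A1 copies were lower in Map3k8[D270A] at 1 and 2 h, but unevenly between sets of replicates. Bcl2a1b ran from 12.17 to 12.52 at 1 h and from 12.95 to 13.27 at 2 h, and overlapped WT at 1 h and not at 2 h. Its difference was -0.45 at 1 h (adjusted p = 0.00126) and -0.52 at 2 h (adjusted p = 0.000228), and that of Bcl2a1d was -0.48 (adjusted p = 0.00595) and -0.42 (adjusted p = 0.0184). The call for Bcl2a1d at 2 h was lost without WT replicate 4 or 6 or Map3k8[D270A] replicate 6 (from -0.39 to -0.34). At 0.5 h neither passed (-0.25 for each, adjusted p = 0.284 and 0.444), though Bcl2a1d did within the second of the sets of replicates described next (-0.49, adjusted p = 0.0418).

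WT libraries fell into sets by replicate number. At 1 h of LPS WT replicates 4, 5 and 6 gave 13.13, 13.12 and 13.18 for Bcl2a1b and 11.37, 11.36 and 11.53 for Bcl2a1d, and replicates 7, 8 and 9 gave 12.50, 12.29 and 12.68, and 10.67, 10.43 and 10.80. Each set had Map3k8[D270A] libraries that deviated with it, replicates 1 to 3 with the first and 4 to 6 with the second, so the difference was also taken within sets. The sets were read from these same libraries. For Bcl2a1b at 1 h it was -0.69 within the first set (adjusted p = 9.13e-07) and -0.20 within the second (adjusted p = 0.391). At 2 h, with a lone WT library in the second set, it was -0.51 (adjusted p = 7.9e-06) and -0.39 (adjusted p = 0.137).

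For Bcl2a1d it was -0.74 and -0.22 at 1 h (adjusted p = 3.06e-06 and 0.373) and -0.34 and -0.37 at 2 h (adjusted p = 0.00211 and 0.192). Mcl1 was called within both sets at -0.18 and -0.42 at 0.5 h, and at -0.33 and -0.32 at 1 h (adjusted p from 1.41e-06 to 0.00935). At 2 h it was -0.32 within the first set (adjusted p = 6.8e-07) and -0.20 within the second, where the lone WT library gives no spread of its own. Whether the sets differ in batch was not tested.

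**Figure D2:**
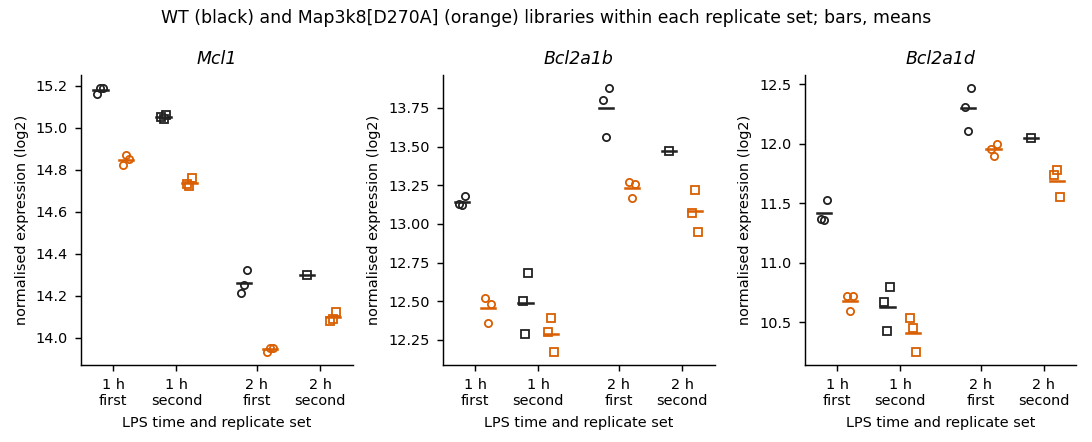
Normalised expression (log2) of Mcl1, Bcl2a1b and Bcl2a1d at 1 and 2 h of LPS in WT (black) and Map3k8[D270A] (orange) libraries, by replicate set (circles, first set; squares, second set), with bars at the means. Mcl1 is lower in Map3k8[D270A] in both sets, while the WT libraries of the second set sit near the Map3k8[D270A] libraries for the Bcl2a1 copies at 1 h.

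The other members differed little between WT and Map3k8[D270A]. Bcl2l1 was higher by 0.15 at 1 h (adjusted p = 0.0289, lost without any of 3 libraries) and lower at 2 h (-0.20, adjusted p = 0.00255), where its libraries ran from 12.86 to 13.01 and did not overlap WT. Its response at 2 h was smaller than in WT by 0.31 (-0.31, adjusted p = 0.000897), a call lost within the second set (-0.31, adjusted p = 0.0842). Bcl2l11 was lower at 0.5 h (-0.18, adjusted p = 0.0393), a call that rested on the second set (-0.29 against -0.06) and was lost with the replicate number as a block (adjusted p = 0.113) or without any of 8 libraries. At 1 and 2 h, when Bcl2l11 is high, it was not called (-0.08 and -0.07, adjusted p = 0.367 and 0.381), although within the first set it was lower at both times (-0.20 and -0.15, adjusted p = 0.00114 and 0.00392) and within the second it was not called (0.05 at each, adjusted p = 0.535 and 0.597). Bid was higher by 0.16 at 1 h (adjusted p = 0.0257) and Bbc3 by 0.26 at 2 h (adjusted p = 0.0253). Both groups overlapped WT, and each call was lost on leaving out any of 5 libraries for Bid or 4 for Bbc3. Pmaip1 and Bax were not called at any time. Within the first set at 1 h, however, Pmaip1 was higher (0.26, adjusted p = 0.00469) and Bax lower (-0.18, adjusted p = 0.00231), and Pmaip1 at 2 h passed in the fit over all libraries (0.28, adjusted p = 0.0352).

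The sets also changed calls for other members. Bcl2l1 at 1 h was called within the second set (0.25, adjusted p = 0.0193) and not within the first (0.05, adjusted p = 0.414), and at 2 h within the first (-0.16, adjusted p = 0.00135) and not within the second (-0.23, adjusted p = 0.0997). Within the first set Bcl2l1 was also higher without LPS and at 0.5 h (0.13 and 0.16, adjusted p = 0.0396 and 0.0239). Bid at 1 h was called within the first set alone (0.19, adjusted p = 0.0113), and Bbc3 at 2 h within neither (0.18 and 0.41, adjusted p = 0.0577 and 0.15).

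Within Map3k8[D270A] BMDMs, set against their own unstimulated cells, 5, 8 and 9 of the 9 genes were called at 0.5, 1 and 2 h of LPS, beside 5.08%, 41.9% and 69.5% of genes tested. Quantile normalisation turned Mcl1 at 2 h to -0.13 and Bax to -0.17. Bax at 2 h was lost within the first set (0.02, adjusted p = 0.616) and Pmaip1 at 2 h within the second (-0.22). Bid at 0.5 h was lost within each set (-0.17 and -0.18). The difference between the responses of Map3k8[D270A] and WT was called for 0, 1 and 3 members (0.109%, 2.02% and 15.5%), namely Mcl1 at 1 h, and Bcl2l1, Bcl2a1b (-0.43, adjusted p = 0.0379) and Bbc3 (0.41, adjusted p = 0.0112) at 2 h. The call for Bcl2a1b was lost without any of 8 libraries, with the copies summed (-0.41, adjusted p = 0.0544) and under quantile normalisation (-0.36, adjusted p = 0.0736). Within the second set, which has a lone WT library at 2 h, the 2 h calls for Bcl2a1b (-0.43, adjusted p = 0.222) and Bbc3 (0.59, adjusted p = 0.117) were lost, whereas that for Mcl1 at 1 h was made within each set. At 0.5 h Mcl1 alone had an unadjusted p below 0.05.

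Without ELK1 and ELK4, Bcl2a1b and Bax were lower at all 4 times and Mcl1 was higher before LPS. DMSO cultures without LPS, with neither mutation nor inhibitor, moved the same way against the same WT libraries, and all 3 genes were called there. Their means were 10.11 for Bcl2a1b, 11.26 for Bax and 14.09 for Mcl1. In unstimulated WT they were 10.51, 11.52 and 13.87, and in unstimulated Elk1-/-Elk4-/- 9.64, 11.07 and 14.38. In Elk1-/-Elk4-/- against WT BMDMs 7 of the 9 genes were called before LPS (51.8% of genes tested) and 7, 6 and 8 at the LPS times in turn (44.4%, 53.4% and 50.8%), so a called gene is not unusual in this comparison. Among the 9 genes Bcl2a1b at 1 h and both Bcl2a1 copies at 2 h were at least 2-fold lower, as were 0.665% and 0.959% of all genes tested. The neutrophil markers moved with this genotype as given above, and B cell markers also summed higher (from 6.45 to 7.08 against from 5.52 to 6.47 in WT, with only Cd79b past the filter). The 1 fibroblast marker tested was higher at 0.5, 1 and 2 h (0.56, 0.51 and 0.54). Of 2 dendritic cell markers tested, 1 was higher at each of the 4 times and 1 was lower at 2 h. The part of these markers' cells in the results was not tested.

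Bcl2a1b in the 4 Elk1-/-Elk4-/- libraries was 9.49, 9.61, 9.76 and 9.68 without LPS, 11.53, 11.63, 11.73 and 11.68 at 1 h, and 12.39, 12.44, 12.78 and 12.44 at 2 h. At each of the 4 times all lay below all WT libraries. The difference was -0.87 without LPS (adjusted p = 4.66e-09), -0.68 at 0.5 h (adjusted p = 2.04e-06), -1.17 at 1 h, or 2.26-fold lower (adjusted p = 1.46e-12), and -1.17 at 2 h, or 2.24-fold lower (adjusted p = 2.32e-11). Bcl2a1d was lower by 1.4-fold without LPS, 1.98-fold at 1 h and 2.11-fold at 2 h (-0.48, -0.98 and -1.08, adjusted p = 0.00269, 4.22e-08 and 3.85e-08). It did not pass at 0.5 h (-0.13, adjusted p = 0.453), where the copies summed gave -0.57 (adjusted p = 4.6e-05).

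Although lower in level, the A1 genes still rose with LPS in these cells. Bcl2a1b rose 4.02-fold at 1 h and 7.35-fold at 2 h from its own start, and its response did not differ from that of WT beyond the spread (-0.30 and -0.29, adjusted p = 0.763 and 0.243). For Bcl2a1d the response at 2 h was smaller (-0.60, adjusted p = 0.0346), a call lost with the copies summed (-0.34, adjusted p = 0.163), under quantile normalisation (-0.55, adjusted p = 0.0517) and without any of 8 libraries.

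Mcl1 was higher in Elk1-/-Elk4-/- BMDMs before and early in LPS stimulation. Its libraries were 14.38, 14.35, 14.49 and 14.29 without LPS, above all WT libraries, and 14.20, 14.28, 14.41 and 14.11 at 2 h, overlapping them. The difference was 0.51 ± 0.05 without LPS (adjusted p = 1.12e-11), 0.35 at 0.5 h (adjusted p = 2.37e-07), 0.16 at 1 h (adjusted p = 0.00797) and -0.02 at 2 h (adjusted p = 0.782). The response was correspondingly smaller than in WT by 0.35 at 1 h and 0.53 at 2 h (-0.35 and -0.53, adjusted p = 0.00296 and 7.16e-07), and the call at 1 h was lost under quantile normalisation (-0.27, adjusted p = 0.0952). Mcl1 at 2 h was below its own unstimulated level by 0.13 (-0.13, adjusted p = 0.0449), which any of 5 single libraries could undo.

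Bax was lower in Elk1-/-Elk4-/- BMDMs at all 4 times, with no overlap. Its libraries ran from 10.98 to 11.16 without LPS and from 11.18 to 11.32 at 2 h, and the difference was -0.44, -0.41, -0.45 and -0.27 (adjusted p = 1.79e-10, 3.79e-09, 8.37e-11 and 3.25e-05). Bid was higher at all 4 times by 0.17 to 0.27 (adjusted p from 4.55e-05 to 0.00699) and Pmaip1 by 0.29 to 0.40 (adjusted p from 0.0102 to 0.0347). The Pmaip1 calls were thin: 1 library decided each of those without LPS and at 0.5 h, replicate 4 of this genotype (0.25 and 0.26 without it), and any of 5 that at 1 h. Bcl2l11 was higher without LPS (0.15, adjusted p = 0.0133) and at 0.5 h (0.32, adjusted p = 2.35e-06) and lower at 2 h (-0.26, adjusted p = 0.000198), where its response was smaller by 0.41 (-0.41, adjusted p = 0.00011). Bcl2l1 was lower at 2 h alone (-0.25, adjusted p = 0.000269), and Bbc3 at 0.5 h (-0.24, adjusted p = 0.0281, lost without any of 4 libraries) and 2 h (-0.44, adjusted p = 0.000151).

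Within Elk1-/-Elk4-/- BMDMs, LPS called 5, 8 and 8 of the 9 genes at 0.5, 1 and 2 h, beside 4.96%, 33.3% and 67.2% of genes tested. The response differed from that of WT for 0, 1 and 3 members, beside 0.0589%, 1.35% and 16.9%. At 0.5 h Mcl1 and Bcl2l11 had an unadjusted p below 0.05. Of the other family members Bcl2a1a was the 1 past 2-fold, at 2.15-fold below WT at 2 h (-1.10, adjusted p = 2.84e-06), so 3 of the A1 copies were at least 2-fold lower there. The LPS response of Bcl2a1a was also called as at least 2-fold smaller than in WT at 1 and 2 h. Its mean went from 4.42 to 6.50 and 7.61 in these cells, and from 4.14 to 7.35 and 8.71 in WT. It starts at a low level, and it was not taken against the sets of WT replicates.

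Since the WT libraries fell into sets, the comparison was also made against either set of WT replicates alone, a choice made after the data were seen, with a lone WT library in the second set at 2 h. The lower A1 copies at 1 h were called against each set, at -1.5 and -0.85 for Bcl2a1b (adjusted p = 4.6e-18 and 7.4e-09) and -1.38 and -0.59 for Bcl2a1d (adjusted p = 4.58e-14 and 5.8e-05), and so were those of Bax at each time. The higher Mcl1 at 1 h was not called against the first set (0.09, adjusted p = 0.149). Against the second set no Pmaip1 call was left at any of the 4 times (from 0.04 to 0.26, adjusted p from 0.136 to 0.928). The calls for Bbc3 at 0.5 and 2 h (-0.16 and -0.32, adjusted p = 0.258 and 0.13), Bcl2l1 at 2 h (-0.23, adjusted p = 0.0561), Bid at 2 h (0.22, adjusted p = 0.109) and the Bcl2a1d response at 2 h (-0.54, adjusted p = 0.11) were lost against it too. It called in turn Bcl2l11 at 1 h (0.26, adjusted p = 2.44e-06) and Bcl2a1d at 0.5 h (-0.36, adjusted p = 0.012).

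In Nfkb1[SS/AA] BMDMs, in which p105 keeps TPL-2 bound, the survival genes and Bcl2l11 rose less at 1 h of LPS, though not each of them against either set of WT replicates. In Nfkb1[SS/AA] against WT BMDMs 5 of the 9 genes were called without LPS (32.0%), 5 at 0.5 h (32.3%) and 6 at 1 h (42.5%). Mcl1 was higher without LPS (14.08 to 14.32, difference 0.32, adjusted p = 2.73e-09) and at 0.5 h (14.62 to 14.96, difference 0.28, adjusted p = 8.87e-08), with no overlap with WT at either time. At 1 h it matched WT within 0.01 (15.07 to 15.15, difference -0.01, adjusted p = 0.813).

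Bcl2a1b followed the same order, at 0.37, 0.35 and -0.23 (adjusted p = 0.00131, 0.00258 and 0.0487). The last call was lost without any of 7 libraries. Bcl2a1d was not called without LPS or at 0.5 h, where the copies summed were higher and passed (0.36 and 0.31, adjusted p = 0.00152 and 0.00583). It was lower at 1 h (-0.61, adjusted p = 1.56e-06), where it ran from 10.20 to 10.67 and overlapped the second set of WT replicates only. Bcl2l11 was at 0.14, 0.31 and -0.21 (adjusted p = 0.0123, 7.17e-08 and 0.000157). Bcl2l1 differed at 1 h alone (-0.33, adjusted p = 6.44e-09), where its range of 11.68 to 11.98 lay below every WT library.

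Among the death genes Pmaip1 was lower without LPS (-0.46, adjusted p = 5.45e-05) and at 0.5 h (-0.30, adjusted p = 0.00895, lost without WT replicate 8), Bid was higher at each of the 3 times (0.18, 0.19 and 0.37, adjusted p = 0.00302, 0.00136 and 1.07e-09), and Bbc3 was higher at 1 h (0.49, adjusted p = 1.61e-08). Bax was not called, except as lower without LPS and at 0.5 h under quantile normalisation (-0.12 and -0.13, adjusted p = 0.0476 and 0.0328).

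The difference between LPS responses at 1 h was called for 6 of the 9 genes, beside 6.07% of genes tested, and at 0.5 h for none, beside 0.309%, with Bcl2l11 alone at an unadjusted p below 0.05. The rise was smaller in Nfkb1[SS/AA] by 0.33 for Mcl1, 0.34 for Bcl2l1, 0.35 for Bcl2l11, 0.60 for Bcl2a1b and 0.86 for Bcl2a1d (differences of -0.33, -0.34, -0.35, -0.60 and -0.86, adjusted p = 2.61e-05, 9.75e-05, 4.78e-05, 0.00112 and 1.34e-05). The dip of Bbc3 was smaller by 0.40 (adjusted p = 0.00531). LPS called 7 members at each of 0.5 and 1 h within these cells (14.6% and 44.4%). Bcl2l1 was not among them at 1 h (-0.10, adjusted p = 0.0953), whereas in WT it was called.

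Against WT replicates 4 to 6 alone the A1 copies at 1 h were at -0.55 for Bcl2a1b and -1.01 for Bcl2a1d (adjusted p = 2.8e-06 and 4.51e-14). Against replicates 7 to 9 alone they were at 0.10 and -0.21 (adjusted p = 0.448 and 0.0934), so the lower level at 1 h rested on the first set. The same held for Bcl2l11 at 1 h, at -0.05 against the second set (adjusted p = 0.406). Of the 5 smaller rises at 1 h, those of Mcl1 and Bcl2a1d were called against each set, and those of Bcl2l1, Bcl2l11 and Bcl2a1b were lost against the second (-0.26, -0.21 and -0.36, adjusted p = 0.0904, 0.0964 and 0.271). The higher Bcl2a1b at 0.5 h was lost against the second set (0.24, adjusted p = 0.0664) and the lower Pmaip1 at 0.5 h against the first (-0.20, adjusted p = 0.155). Bcl2a1d was called as higher without LPS against the second set (0.37, adjusted p = 0.00438) and at 0.5 h against the first (0.32, adjusted p = 0.0131).

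**Figure D3:**
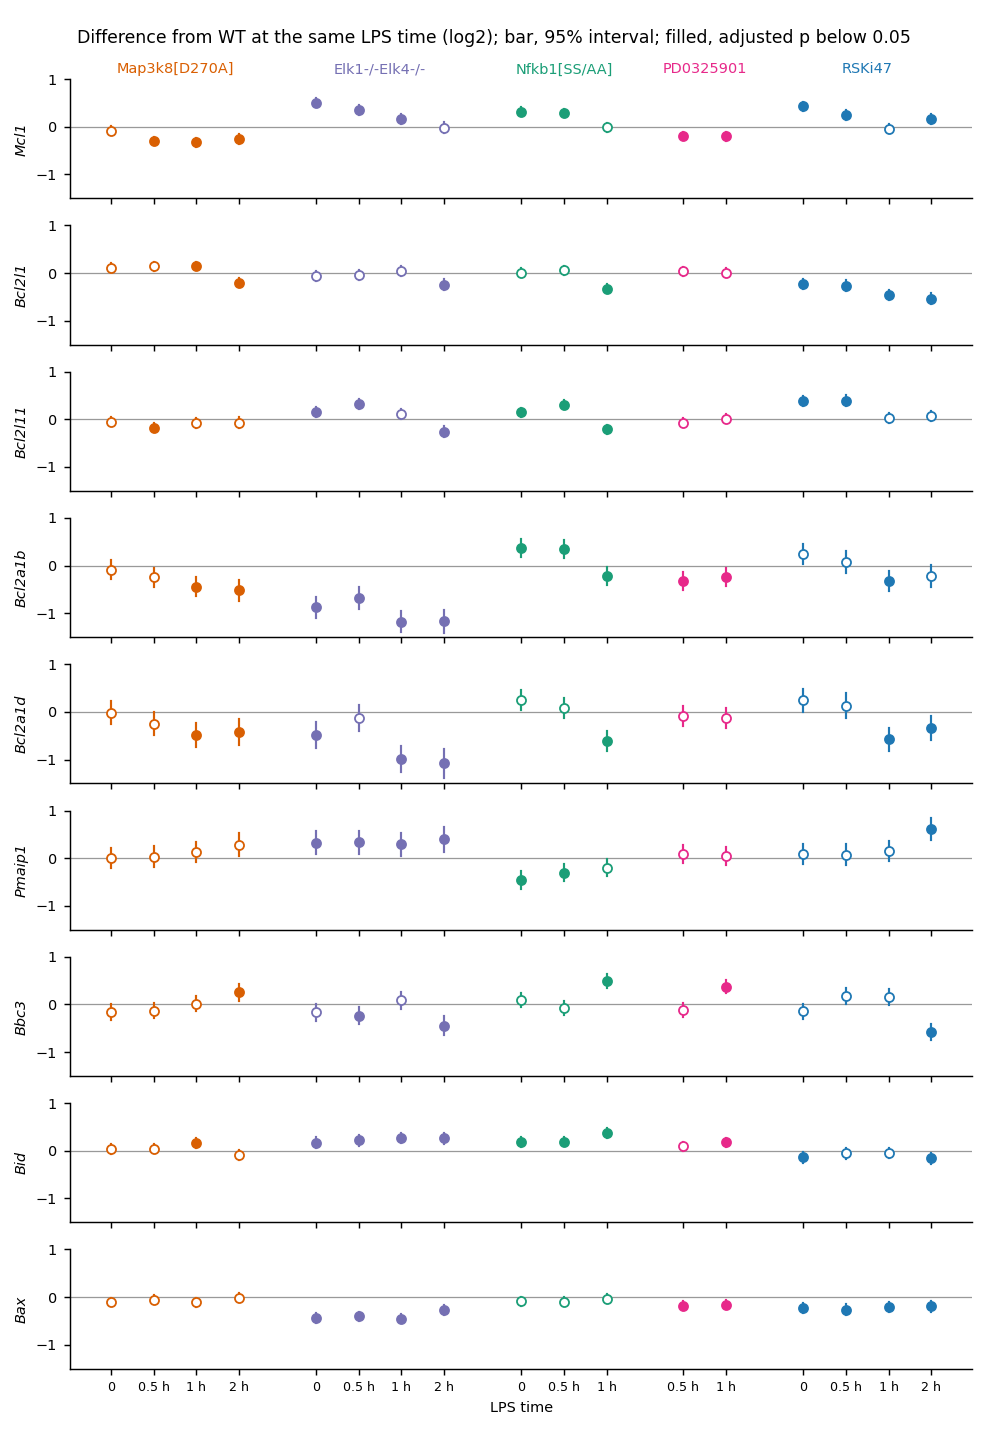
Difference from WT at the same LPS time (log2, vertical axis) for each of the 9 genes in Map3k8[D270A], Elk1-/-Elk4-/-, Nfkb1[SS/AA], PD0325901 and RSKi47 BMDMs, with bars for the 95% interval and filled points for an adjusted p below 0.05. All comparisons share the WT libraries. Bcl2a1b is lowest in Elk1-/-Elk4-/- BMDMs at 1 and 2 h (-1.17 at each), and Mcl1 lies below WT with LPS in Map3k8[D270A] and PD0325901.

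Inhibition of MKK1/2 addresses the same pathway as the Map3k8 mutation by another route. With PD0325901 alone for 10 min against DMSO for 10 min no member was called, and no gene of all those tested (0.00%, with 245 genes but no member at an unadjusted p below 0.05). DMSO cultures themselves differed from untreated WT for 3 of the 9 genes (23.6%), at 0.22 for Mcl1, -0.40 for Bcl2a1b and -0.25 for Bax (adjusted p = 0.00132, 0.00803 and 0.00076). The call for Bcl2a1b was lost without DMSO replicate 2 (-0.37, adjusted p = 0.0502), and with the copies summed the value was -0.32 (adjusted p = 0.0326), whereas Bcl2a1d alone was not called (0.11, adjusted p = 0.599).

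Over longer exposure without LPS 4 members were called. At 40 against 10 min only Mcl1 was called (3.58% of genes tested), falling from 14.11, 14.12 and 14.14 to 13.87, 13.83 and 13.96 (-0.24, adjusted p = 0.0108, lost without any of 3 libraries). At 70 min Mcl1 stood at 14.02, 13.99 and 14.05 (-0.10 from 10 min, adjusted p = 0.413).

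At 70 against 10 min 3 were called (6.09%), and with the replicate number as a block Pmaip1 was called as well (0.34, adjusted p = 0.0253). Bcl2l1 fell from 12.03, 12.01 and 11.96 to 11.47, 11.44 and 11.48, with 11.93, 11.98 and 11.96 at 40 min, a drop of 1.45-fold (-0.54 ± 0.07, adjusted p = 6.25e-10). Bcl2l11 rose from 11.82, 11.78 and 11.76 to 12.16, 12.18 and 12.17, with 11.84, 11.80 and 11.86 at 40 min (0.38 ± 0.07, adjusted p = 1.22e-05). Bbc3 rose from 9.18, 9.08 and 9.06 to 9.62, 9.40 and 9.42 (0.38 ± 0.10, adjusted p = 0.0117, lost without any of 3 libraries). No group of untreated or DMSO cells was collected at 40 or 70 min, so time in culture and the inhibitor cannot be told apart. The level of Bcl2l1 at 70 min was the lowest of the 25 groups and stood beyond the summed SD from the next.

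With LPS, PD0325901 cells were compared with WT at the same time. At 0.5 h 3 members were called (29.4%), Mcl1 (14.22 to 14.33, difference -0.19, adjusted p = 0.00029), Bcl2a1b (-0.31, adjusted p = 0.00839) and Bax (-0.18, adjusted p = 0.00237). At 1 h 5 were called (35.7%), Mcl1 (14.86 to 14.96, difference -0.20, adjusted p = 9.05e-05), Bcl2a1b (-0.24, adjusted p = 0.0396), Bbc3 (0.38, adjusted p = 1.71e-05), Bid (0.18, adjusted p = 0.00332) and Bax (-0.17, adjusted p = 0.00422). Mcl1 and Bax did not overlap WT at either time. The lower Bcl2a1b and Bax were already seen in DMSO cultures without LPS, at -0.40 and -0.25, whereas Mcl1 was higher there. Averaging the 6 libraries of each time into 3 lost both Bcl2a1b calls at the same differences of -0.31 and -0.24 (adjusted p = 0.0606 and 0.14), and that at 1 h was also lost with the copies summed (-0.21, adjusted p = 0.0656) and without any of 7 libraries. At 0.5 h Bcl2a1d was not called, whereas the copies summed were lower (-0.28, adjusted p = 0.0173). The B cell marker Cd79b was higher with PD0325901 at 0.5 and 1 h (0.55 and 0.40, adjusted p = 0.000867 and 0.0155) and the neutrophil markers summed higher in DMSO cultures too, as given above, and their part in these results was not tested.

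These calls also depended on the set of WT replicates. At 1 h Bcl2a1b was at -0.57 against the first set (adjusted p = 1.82e-06) and 0.09 against the second (adjusted p = 0.569), and Bcl2a1d at -0.53 and 0.26 (adjusted p = 1.86e-05 and 0.0504). Bcl2l11 at 1 h was called in opposite directions, at -0.14 and 0.17 (adjusted p = 0.0193 and 0.00486), and Bid was lost against the second set (0.16, adjusted p = 0.0585). At 0.5 h Mcl1 and Bcl2a1b were not called against the first set (-0.12 and -0.20, adjusted p = 0.0672 and 0.103), and Bcl2a1d and Bcl2l11 were called as lower against the second (-0.32 and -0.18, adjusted p = 0.0185 and 0.00348). Mcl1 at 1 h and Bax at both times were called against each set.

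Set against inhibitor alone of the same length, LPS called 7 members at 0.5 h and 8 at 1 h (14.9% and 43.6% of genes tested). The response differed from WT for none at 0.5 h (1.49%, with Mcl1 and Bbc3 at an unadjusted p below 0.05) and 3 at 1 h (3.58%). Mcl1 rose less than in WT (-0.36, adjusted p = 9.1e-05), as did Bcl2l11 (-0.35, adjusted p = 0.000707), and Bcl2l1 rose more (0.46, adjusted p = 2.17e-06). The call for Bcl2l11 was lost against WT replicates 7 to 9 (-0.20, adjusted p = 0.188). For Bcl2l1 and Bcl2l11 the level with LPS was within 0.02 of the mean of all WT libraries (0.00 and 0.02, adjusted p = 0.955 and 0.817), and it was their level at 70 min of inhibitor alone that stood apart, as given above.

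**Figure D4:**
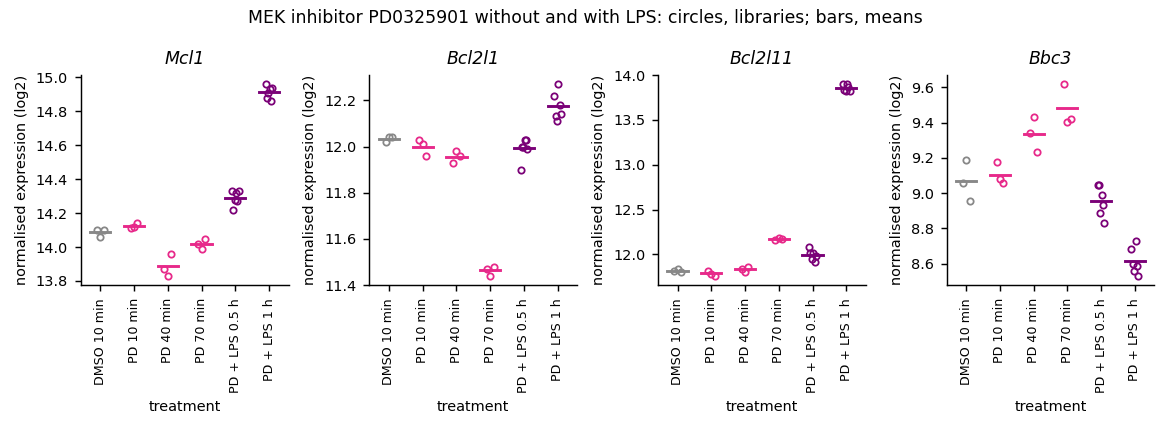
Normalised expression (log2) of Mcl1, Bcl2l1, Bcl2l11 and Bbc3 with DMSO for 10 min, with PD0325901 alone for 10, 40 and 70 min, and with PD0325901 followed by LPS for 0.5 and 1 h, with circles for libraries and bars for means. Among the cultures with inhibitor alone, Bcl2l1 is lowest and Bcl2l11 highest at 70 min, at 11.46 and 12.17.

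With RSKi47, an inhibitor of the RSK kinases downstream of ERK1/2, Bcl2l1 and Bax were lower at all 4 times. Against WT 5 of the 9 genes were called before LPS (53%) and 4, 4 and 7 at the LPS times in turn (48.2%, 52.8% and 52.1%). Bcl2l1 ran from 11.48 to 11.84 without LPS, from 11.65 to 11.70 at 0.5 h, from 11.56 to 11.77 at 1 h and from 12.32 to 12.74 at 2 h, below every WT library of its time. The difference was -0.23, -0.26, -0.46 and -0.54 (adjusted p = 0.000159, 8.82e-05, 4.24e-12 and 1.98e-13). At 1 h of LPS Bcl2l1 had not risen in these cells (0.02, adjusted p = 0.861), although the test of the difference from the WT response missed the threshold (-0.23, adjusted p = 0.054). It had risen at 2 h (0.90, adjusted p = 1.28e-26), by less than in WT (-0.31, adjusted p = 0.00187).

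Bax was lower by 0.19 to 0.27 at all 4 times with no overlap (adjusted p from 8.93e-05 to 0.00367). DMSO cultures without LPS had a Bax mean of 11.26, beside 11.28 with RSKi47 and 11.52 in WT. Their Mcl1 mean was 14.09, beside 14.29 with RSKi47 and 13.87 in WT. With RSKi47 Mcl1 was higher without LPS (0.42, adjusted p = 1.6e-12), at 0.5 h (0.24, adjusted p = 1e-04) and at 2 h (0.16, adjusted p = 0.00702) but not at 1 h (-0.04, adjusted p = 0.488). Bcl2l11 was higher without LPS and at 0.5 h by 0.39 at each (adjusted p = 5.04e-10 and 1.64e-08), and not at 1 or 2 h, apart from a call at 2 h under quantile normalisation (0.16, adjusted p = 0.014). Bcl2a1b was lower at 1 h (-0.32, adjusted p = 0.00807, lost without RSKi47 replicate 1), as was Bcl2a1d (-0.58, adjusted p = 2.93e-05). Without LPS neither copy was called, but the copies summed were higher (0.25, adjusted p = 0.0373). Bcl2a1b passed there with the replicate number as a block (0.24, adjusted p = 0.0441) or with a variance trend (0.24, adjusted p = 0.0486).

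At 2 h Pmaip1 was 1.53-fold higher (8.80 to 9.01, difference 0.62, adjusted p = 3.74e-06) and Bbc3 1.49-fold lower (8.37 to 8.52, difference -0.58, adjusted p = 3.17e-08), both without overlap. RSKi47 replicate 4 stood apart from its group at 2 h, at 1.93 times the median distance of a library from its group. Nfkb1[SS/AA] replicate 2 at 1 h (2) and the Map3k8[D270A] libraries at 2 h (1.7 to 1.95) stood about as far apart and were left out only singly. With RSKi47 replicate 4 left out at every time, a choice made after the data were seen, the calls for Bcl2a1d at 2 h (-0.34, adjusted p = 0.0252) and for Bid without LPS and at 2 h (-0.14 and -0.16) were lost (-0.28, -0.10 and -0.11, adjusted p = 0.0882, 0.146 and 0.169). The call for Bcl2a1d at 2 h was also lost with the copies summed (-0.25, adjusted p = 0.0542) and under quantile normalisation (-0.27, adjusted p = 0.0717). Fibroblast markers (5 genes, of which Col3a1, Dcn and Pdgfra did not pass the filter) summed from 5.06 to 9.42 in RSKi47 libraries and from 3.97 to 4.93 in WT. The highest sum was in an unstimulated RSKi47 library, of a group with a median of 5.95. B cell markers summed from 5.27 to 5.64 against from 5.52 to 6.47 in WT. The part of either set of markers was not tested.

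Within RSKi47 cells LPS called 5, 7 and 8 members at 0.5, 1 and 2 h (5.10%, 29% and 62.2%). The response differed from that of WT for 0, 4 and 7 members (0.0251%, 5.54% and 21.0%). At 1 h Mcl1, Bcl2l11, Bcl2a1b and Bcl2a1d rose less (-0.47, -0.37, -0.56 and -0.82, adjusted p = 2.73e-07, 0.000227, 0.01 and 0.000439). At 2 h these 4 again rose less (-0.26, -0.32, -0.47 and -0.58, adjusted p = 0.00377, 0.000923, 0.0241 and 0.0113), as did Bcl2l1, and the response was lower for Bbc3 (-0.43, adjusted p = 0.00491) and higher for Pmaip1 (0.53, adjusted p = 0.00844). The Bcl2a1b calls were lost without any of 2 libraries at 1 h or 4 at 2 h. At 2 h quantile normalisation lost the calls for Mcl1 (-0.19, adjusted p = 0.0771) and Bcl2a1b (-0.34, adjusted p = 0.112), and leaving out RSKi47 replicate 4 at every time lost those for Bcl2a1d (-0.50, adjusted p = 0.0645) and Bcl2a1b (-0.33, adjusted p = 0.168), and that for Bcl2a1b at 1 h (-0.47, adjusted p = 0.0726). At 0.5 h Mcl1 and Bbc3 had an unadjusted p below 0.05.

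Set against WT replicates 4 to 6 alone, Bcl2a1b at 1 h was at -0.65 and Bcl2a1d at -0.97 (adjusted p = 2.58e-07 and 4.35e-12). Against replicates 7 to 9 alone they were at 0.00 and -0.18 (adjusted p = 0.98 and 0.182), so these calls rested on the first set. Bcl2l11 at 1 h was called in opposite directions, at -0.13 and 0.17 (adjusted p = 0.0275 and 0.00379). The lower Bcl2l1 and Bax were called against each set without LPS and at 0.5 and 1 h, and against the first set at 2 h. At 2 h the second set holds a lone library, which gives no spread of its own. Against that library Bcl2l1 was at -0.52 and Bax at -0.24. The calls at 2 h for Bax, Mcl1, Pmaip1, Bid and Bcl2a1d were not made against it (0.13, 0.26, -0.21 and -0.15 for the last 4).

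Of the smaller responses at 1 h, that of Mcl1 was called against each set, and those of Bcl2l11, Bcl2a1b and Bcl2a1d were lost against the second (-0.23, -0.32 and -0.55, adjusted p = 0.114, 0.537 and 0.0601). At 2 h the 6 response calls other than Mcl1 were lost against the second set (adjusted p from 0.0534 to 0.652), and that of Mcl1 against the first (-0.18, adjusted p = 0.0789). Without LPS Bid was lost against the second set (-0.12, adjusted p = 0.158), and both A1 copies were called as higher against it (0.33 and 0.37, adjusted p = 0.0107 and 0.00524), as was Bbc3 at 0.5 and 1 h (0.25 and 0.24, adjusted p = 0.0356 and 0.0336). Against the first set Bcl2a1d was higher at 0.5 h (0.36, adjusted p = 0.00767) and Bcl2a1b lower at 2 h (-0.30, adjusted p = 0.0141).

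Side by side at 1 h of LPS, the smaller rise of Mcl1 was -0.24 in Map3k8[D270A], -0.35 in Elk1-/-Elk4-/-, -0.33 in Nfkb1[SS/AA], -0.36 with PD0325901 and -0.47 with RSKi47, each called. Under quantile normalisation the calls in Map3k8[D270A] and Elk1-/-Elk4-/- were lost (-0.12 and -0.27, adjusted p = 0.919 and 0.0952). Against either set of WT replicates all 5 were called, with Map3k8[D270A] taken within its sets. These values share the WT libraries and are not independent. They differ in what lies beneath them. In Map3k8[D270A] the level at 1 h was below WT and the start was not called, whereas in Elk1-/-Elk4-/-, Nfkb1[SS/AA] and RSKi47 BMDMs the start was higher and the level at 1 h was not below WT beyond the spread. With PD0325901 the level at 1 h was below WT and the start, at 14.02 after 70 min of inhibitor alone, lay above the 13.87 of untreated WT, a difference that was not tested. DMSO cultures without inhibitor also lay above untreated WT, at 14.09, and that difference was called. A start above the shared WT libraries was thus also seen with neither mutation nor inhibitor.

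**Figure D5:**
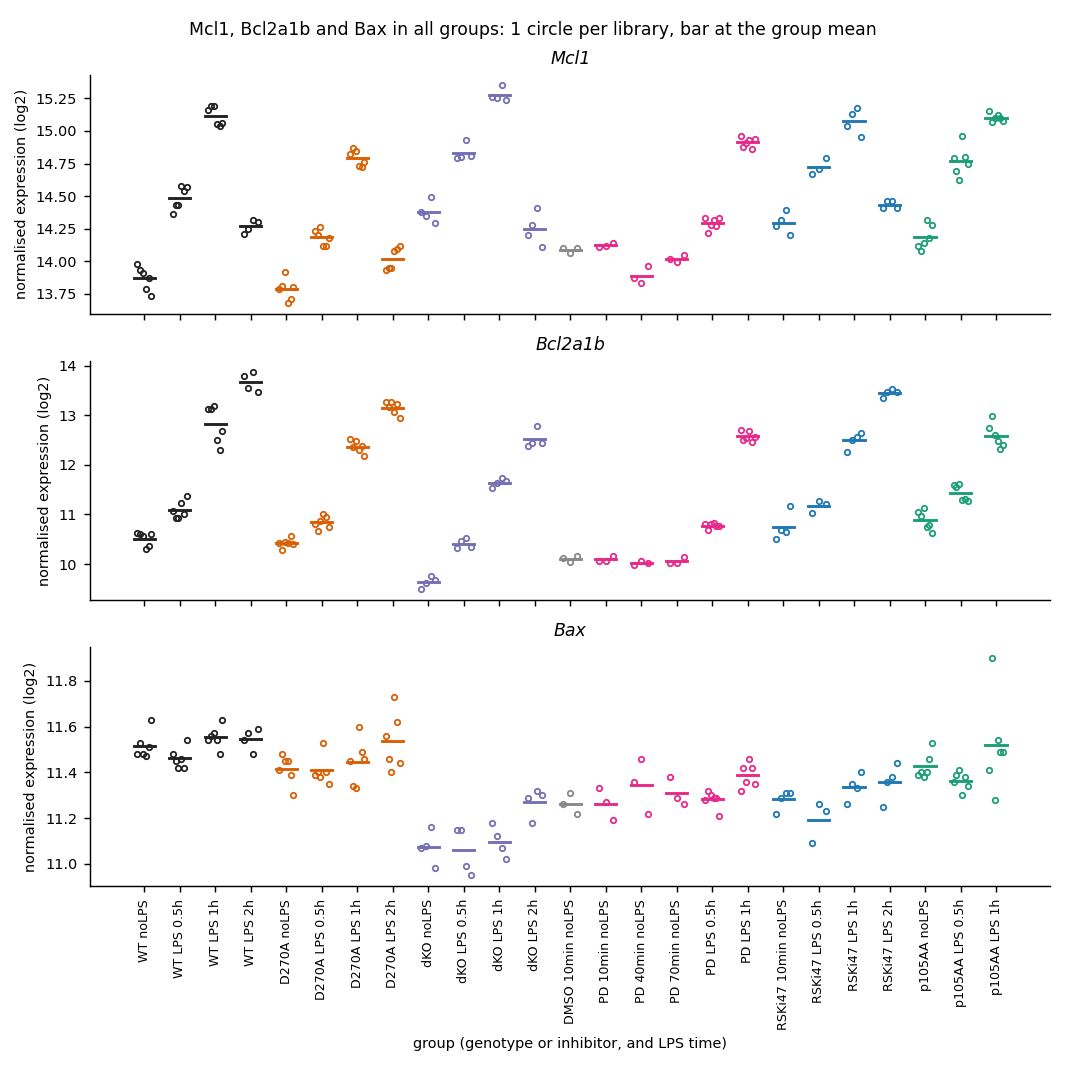
Normalised expression (log2) of Mcl1, Bcl2a1b and Bax in all 25 groups (horizontal axis, by genotype or inhibitor and LPS time, with D270A for Map3k8[D270A], PD for PD0325901, dKO for Elk1-/-Elk4-/- and p105AA for Nfkb1[SS/AA]), with 1 circle per library and bars at the means. The group means of Mcl1 span 1.49, those of Bcl2a1b 4.04 and those of Bax 0.49.

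Across the 25 groups the A1 copies varied most and Bax least. The group means spanned 5.07 for Bcl2a1d, 4.04 for Bcl2a1b, 2.19 for Bcl2l11, 2.02 for Pmaip1, 1.67 for Bcl2l1, 1.49 for Mcl1, 1.24 for Bbc3, 0.76 for Bid and 0.49 for Bax. When the groups are put in order of level, few neighbours differ by more than their summed SD, at 6 of 24 pairs for Bcl2a1d, 4 for each of Bcl2a1b, Bcl2l11, Bcl2l1 and Mcl1, 2 for Pmaip1 and 0 for Bbc3, Bid and Bax. The clearest gaps were 1.46 below Elk1-/-Elk4-/- at 1 h for Bcl2a1d, 0.86 below Elk1-/-Elk4-/- at 2 h for Bcl2l11 and 0.73 below Map3k8[D270A] at 1 h for Bcl2a1b. The first 2 part the 10 groups with 1 or 2 h of LPS from the rest, whereas for Bcl2a1b the group next below the gap was Elk1-/-Elk4-/- at 1 h. For Mcl1 the highest group was Elk1-/-Elk4-/- at 1 h (15.27 ± 0.05), followed by WT (15.12 ± 0.07), Nfkb1[SS/AA] (15.10 ± 0.03) and RSKi47 (15.07 ± 0.10) at 1 h, of which the last 3 did not differ beyond their spread. The lowest were unstimulated Map3k8[D270A] (13.78 ± 0.08) and WT (13.87 ± 0.09), which overlapped.

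The genes whose group means ran most like those of a member, by Pearson correlation over the 25 groups among 11961 genes, are given as a description. The groups share libraries, LPS times and controls. For Bcl2a1d they were Bcl2a1a (0.992), Sod2 (0.991) and Nfkbib (0.991), the first a near copy with shared reads. For Bcl2l11 they were Snx18 (0.988), Rel (0.985) and Zc3h12c (0.983). For Bcl2a1b they were Tjap1 (0.975), Clec5a (0.973) and Txnrd1 (0.972). For Bax they were Rplp1 (0.963), Ifi27 (0.962) and Rpl36 (0.943). For Bcl2l1 they included Batf (0.946) and Rcsd1 (0.944). For Pmaip1 they were Kdm6a (0.947), Zfp36l1 and Nuak2 (0.915 each). For Mcl1 they were Thap6 (0.943), Mbd5 (0.915) and Zfand5 (0.914). Bid and Bbc3 had no gene as close, with Mterf4 (0.906) and Zfp775 (0.861) leading.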

How the data were processed

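RNA-seq of BMDMs was analysed in 119 libraries. The authors deposited normalised expression on a log2 scale, 1 column per library, and the submitters' processing notes list RSEM 1.2.29, STAR 2.5.1b, DESeq2 1.10.1 and mm10. The sources used here do not name the transformation. No counts were used, so the values give no depth per library. A single value above 25, which belongs to no member, was left out.

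A mean per group was fitted with limma 3.58.1 in R 4.3.3, with Benjamini-Hochberg adjustment over all genes tested, because the values are not counts. One fit took in WT, Map3k8[D270A] and Elk1-/-Elk4-/- cells (62 libraries) and 11884 genes (at least 10 on the linear scale in at least 4 libraries), and another took in all 119 libraries and 11971 genes (at least 3 libraries). Responses were compared with interaction contrasts, with PD0325901 alone for 40 and 70 min as the start for LPS 0.5 and 1 h. The fit was tested on simulated data. The members and lists were chosen with earlier results of these data known. From each list, genes past an adjusted p of 0.05 and a difference of 1 were named, up to 4 a comparison, largest first. A gene among those most like Bcl2l1 is not reported here. Promoters are from RefSeq on GRCm38.p6, in which 8 of the 9 members were matched and printed or searched, and shared 50-base windows were counted in GENCODE transcripts.

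Same-numbered WT libraries of different times deviated together, with every correlation at 0.164 or more, as did those of Nfkb1[SS/AA] (0.145 or more). The closest library at 0.5 h and at 1 h had the same number for 4 of 6 unstimulated WT libraries, and at 2 h for 2 of 4. Between times of Nfkb1[SS/AA] it had the same number for 4 or 5 of 6. WT libraries also deviate by set, so pairing by number and the sets were not told apart in WT. Every correlation passed 0.1 in 4 of 6 comparisons of times in Map3k8[D270A], 5 of 6 with RSKi47 and 2 of 6 in Elk1-/-Elk4-/-. Same-numbered PD0325901 libraries and same-numbered WT and Map3k8[D270A] libraries did not. Alternatives were another pseudocount, no filter, quantile normalisation, a variance trend, the replicate number as a block, a fit over all libraries, sets of replicates, averaged PD0325901 replicates, summed Bcl2a1 copies and each library left out. The sets were read from these data, and their use for arms other than Map3k8[D270A] was added after seeing the results. No columns were left unmapped, and none held comparisons by the authors.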

Additional observations from a re-analysis of the deposited data

Results flagged for a closer look

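In 16 of 180 combinations of a member and a group, 1 library stood apart from its group by Dixon's test at the 95% level, and chance gives about 1 in 20. For Mcl1 these were Elk1-/-Elk4-/- replicate 3 at 0.5 h (14.93, next 14.81) and at 1 h (15.35, next 15.26). For Bcl2a1b the same replicate stood apart at 2 h (12.78, next 12.44). For Bcl2l1 they were PD0325901 replicate 1 with LPS 0.5 h (11.9, next 11.99) and RSKi47 replicate 4 at 1 h (11.56, next 11.76). For Bcl2l11 they were RSKi47 replicate 4 at 2 h (13.52, next 13.67) and unstimulated Nfkb1[SS/AA] replicate 4 (12.05, next 11.94).

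For Pmaip1 they were unstimulated WT replicate 8 (9.544, next 9.129), WT replicate 7 at 2 h (8.655, next 8.214) and unstimulated Map3k8[D270A] replicate 4 (8.876, next 9.147). For Bbc3 they were unstimulated WT replicate 9 (8.984, next 9.201), WT replicate 5 at 2 h (9.34, next 8.966) and Elk1-/-Elk4-/- replicate 4 at 0.5 h (8.692, next 8.883). For Bax they were unstimulated WT replicate 9 (11.63, next 11.53), Map3k8[D270A] replicate 4 at 0.5 h (11.53, next 11.4) and PD0325901 replicate 6 with LPS 0.5 h (11.21, next 11.28).

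The LPS response of a member differed from that of WT in 28 of 117 tests by limma, and all of these share the WT libraries. Of all genes tested, between 0.0251% and 21.0% were called, depending on the comparison. In Map3k8[D270A] they were Mcl1 at 1 h (-0.24, adjusted p = 0.0293) and Bcl2l1, Bcl2a1b and Bbc3 at 2 h (-0.31, -0.43 and 0.41). In Elk1-/-Elk4-/- they were Mcl1 at 1 and 2 h (-0.35 and -0.53) and Bcl2l11 and Bcl2a1d at 2 h (-0.41 and -0.60). In Nfkb1[SS/AA] at 1 h they were Mcl1, Bcl2l1, Bcl2l11, Bcl2a1b, Bcl2a1d and Bbc3 (-0.33, -0.34, -0.35, -0.60, -0.86 and 0.40). With PD0325901 at 1 h they were Mcl1, Bcl2l1 and Bcl2l11 (-0.36, 0.46 and -0.35). With RSKi47 at 1 h they were Mcl1, Bcl2l11, Bcl2a1b and Bcl2a1d (-0.47, -0.37, -0.56 and -0.82), and at 2 h Mcl1, Bcl2l1, Bcl2l11, Bcl2a1b, Bcl2a1d, Pmaip1 and Bbc3 (-0.26, -0.31, -0.32, -0.47, -0.58, 0.53 and -0.43).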

How the results depend on the processing

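The pseudocount changed none of 354 results, the variance trend 1 and leaving out the filter 6. Quantile normalisation left 328 of 354 the same. It turned Mcl1 at 2 h of LPS against no LPS to -0.06 in WT (adjusted p = 0.354), -0.13 in Map3k8[D270A] and -0.25 with RSKi47, and Bax to -0.17 in Map3k8[D270A] and -0.07 in Elk1-/-Elk4-/-. The cause was not tested. With a difference of at least 1 required as well, the members called in WT were 0 at 0.5 h, 4 at 1 h and 4 at 2 h, beside 0.623%, 3.20% and 7.72% of genes tested that rose as much. They were 2 from 1 to 2 h and 3 from 0.5 to 1 h, for which no share of all genes was computed. In Elk1-/-Elk4-/- they were 1 and 2 at 1 and 2 h, beside 0.665% and 0.959% of genes tested that were as much lower. They were 0 in the other comparisons against WT or between cultures without LPS. In Map3k8[D270A] against WT, 1 member was called without LPS within the first replicate set, and 2 at 1 h and 1 at 2 h within the second, beside 4.90%, 5.46% and 11.4% of genes tested there. Against WT replicates 7 to 9 alone, chosen after seeing the data, the members called were 4 in Elk1-/-Elk4-/- at 2 h, 3 in Nfkb1[SS/AA] at 1 h, 2 with RSKi47 at 2 h and 5 with PD0325901 at 0.5 h, the last being 1 against WT replicates 4 to 6 alone, beside 26.9%, 39.5%, 34.7%, 20.3% and 31.4% of genes tested. Bcl2a1b at 1 h turned to 0.10 in Nfkb1[SS/AA], 0.09 with PD0325901 and 0.00 with RSKi47. In all, 130 of 141 results were the same against the first set and 94 of 141 against the second.

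With the replicate number as a block (correlation within numbers 0.361 and 0.318), 349 of 354 results were the same. In Map3k8[D270A] at 0.5 h the count fell to 1, since Bcl2l11 was lost. Bcl2a1b in unstimulated RSKi47 cells (0.24, adjusted p = 0.0441) and Pmaip1 at 70 against 10 min of PD0325901 (0.34, adjusted p = 0.0253) were gained, as were, in WT, Bbc3 at 2 h against no LPS (-0.18, adjusted p = 0.0194) and Bax at 1 against 0.5 h (0.09, adjusted p = 0.0263). Leaving out 1 library kept the call in 3689 of 3843 results and reversed none. The members called then ran from 0 to 0, 1 to 2, 4 to 5 and 3 to 6 in Map3k8[D270A] at the 4 times, from 6 to 8, 5 to 7, 5 to 7 and 8 to 8 in Elk1-/-Elk4-/-, and from 4 to 7, 4 to 4, 4 to 5 and 5 to 7 with RSKi47. In Nfkb1[SS/AA] they ran from 5 to 6, 4 to 5 and 5 to 7. With PD0325901 they ran from 3 to 3 and 4 to 5 with LPS, 0 to 0 at 10 min, 0 to 1 at 40 min and 2 to 3 at 70 min, and for DMSO from 2 to 3. In WT with LPS they ran from 5 to 6, 8 to 8 and 7 to 8, from 7 to 7 between 0.5 and 1 h and from 8 to 8 between 1 and 2 h. Leaving out RSKi47 replicate 4 at every time, chosen after seeing the data, lost 8 of 67 results. The values used hold no counts per library, so no limit set by depth was computed.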

Other observations

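Outside the 9 genes, the lists of other death genes held calls in both directions. In Map3k8[D270A] against WT at 2 h of LPS, 7 of 11 tested genes of p53 and its targets were higher and 1 was lower, with a median difference of 0.31 (27.7% of all genes tested were called in either direction). With PD0325901 against WT none was higher and 8 were lower at 0.5 h, and none was higher and 7 were lower at 1 h, beside 29.4% and 35.7% of all genes. DMSO alone against WT gave none higher and 2 lower (median -0.10), beside 23.6% of all genes. PD0325901 against DMSO for 10 min called none (0.00% of all genes), and the LPS response with PD0325901 differed from that of WT for none at 0.5 or 1 h (1.49% and 3.58%). In each of these 3 comparisons 0 genes of the list had an unadjusted p below 0.05 by limma. In Nfkb1[SS/AA] at 1 h 1 was higher and 6 were lower, beside 42.5%. Of 19 caspase, apoptosome and IAP genes, 9 were higher and 4 lower in Elk1-/-Elk4-/- BMDMs at 2 h, beside 50.8% of all genes, and 7 higher and 6 lower at 1 h, beside 53.4%. With RSKi47 4 were higher and 10 lower at 1 h, beside 52.8%, and 4 were higher and 4 lower at 2 h, beside 52.1%. These comparisons share the WT libraries, and differences between them were not tested.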
